A study of Mus musculus with 15 samples.

Results

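The mir-28 family of microRNAs (miRNAs) was followed in mouse midbrain by small RNA sequencing. Its arms were taken by name from the deposited table, as every mature arm called miR-28, miR-28a, miR-28b, miR-28c, miR-151 or miR-708, and 6 of the 396 listed miRNAs matched: mmu-miR-151-3p, mmu-miR-151-5p, mmu-miR-708-3p, mmu-miR-708-5p, mmu-miR-28a-3p and mmu-miR-28a-5p, written below without mmu-. The family was chosen by the normalized counts of the 3p arms of miR-151 and miR-708, which were far higher in A30P than in WT libraries, so every A30P against WT value of the 6 arms is given as a description and supports no test, and the calls counted among them below come from the fit over all miRNAs. The 7 midbrain samples labelled A30P alpha-synuclein +/+ (A30P, replicates 1 to 4 and 6 to 8) carried the A30P form of alpha-synuclein, a presynaptic protein whose A30P form is linked to familial Parkinson's disease. The other 8 midbrain samples were wild type (WT, replicates 1 to 8). All mice were C57BL/6 at 6 months of age. The sources used here do not give the promoter or locus behind the A30P form, the sex of the mice or whether each sample came from its own animal. The p-values therefore reflect the spread from sample to sample, and that spread may be technical. In such bulk tissue, fewer cells of a type and less RNA per cell cannot be told apart.

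Reads assigned to listed miRNAs, used here as depth, numbered 21731 to 3500431 per A30P library (median 92827) and 724813 to 9762286 per WT library. The deposited values are normalized counts, that is reads divided by a size factor for each library. Where an A30P library listed an arm at 0, the 3 reads that a count of 0 still allows would stand for 0.522 to 169 normalized counts, against 0.254 to 2.42 in WT libraries. The 6 brain miRNAs of a marker list (miR-128-3p, miR-124-3p, miR-137-3p, miR-338-3p, miR-9-5p and miR-9-3p) had reads in all WT libraries, were all called lower in A30P by limma, as were 71.0% of all 396 miRNAs (35.5% of 318 in edgeR), and summed to 5305 to 50955 normalized counts in A30P and 36404 to 177336 in WT libraries. Of the 3 blood entries miR-451a was higher in A30P (602 against 78.5 in WT, group means), miR-144-5p was lower and the joint entry of miR-486b-5p and miR-486a-5p did not pass, and their sum ran from 223 to 2459 in A30P and from 317 to 1534 in WT libraries. The choroid plexus and cilia markers miR-204-5p (called lower) and miR-34c-5p summed to 56.4 to 1049 in A30P and 1029 to 4513 in WT libraries. The muscle markers miR-206-3p (called higher) and miR-1a-3p summed to 339 to 2855 in A30P and 179 to 2448 in WT libraries. The liver marker miR-122-5p (not passed) had 0 to 68.2 in A30P and 9.72 to 44.7 in WT libraries. Depth, marker levels and a letter in the column names differed between the genotypes, and their part in the values below was not tested. If that letter marks a run, the run and the genotype cannot be told apart.

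A miRNA hairpin is cut by Drosha and then Dicer into a short duplex, and as a rule Argonaute keeps the strand from either the 5′ side (the 5p arm) or the 3′ side (the 3p arm) while the partner is degraded. The kept strand finds target mRNAs mainly through its seed, bases 2 to 8 from the 5′ end. miR-28 and miR-151 are known in mammals as miRNAs that arose from LINE-2 repeats. Pri-miR-151 is a known substrate of the RNA-editing enzyme ADAR1 in brain, and miR-708 is induced with its host gene by the endoplasmic reticulum stress factor CHOP in mouse cells.

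All 3 hairpins lie in introns of protein-coding genes, on the strand of the host, in the GENCODE vM21 annotation of GRCm38 (the submitters' processing notes name mm9, and the deposited table holds no coordinates). Mir151 lies at chr15:73254815-73254882 (minus strand) in an intron of Ptk2, which encodes focal adhesion kinase. Mir708 lies at chr7:96249424-96249532 (plus strand) in an intron of Tenm4, a teneurin of neuronal and glial development. Mir28a lies at chr16:24827855-24827940 (plus strand) in an intron of Lpp, which encodes a focal adhesion and LIM domain protein. No exon of the 5 Ptk2, 7 Tenm4 or 3 Lpp transcripts that span a hairpin overlapped it. Host mRNA was not measured in these small RNA libraries.

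The mature sequences of the miR-708 and miR-28a arms are shown because they tell which arms share a seed. They are from RefSeq (GRCm38.p6), with the seed in capitals, and lie at chr7:96249450-96249472 and chr7:96249496-96249517 for miR-708 and at chr16:24827868-24827889 and chr16:24827908-24827929 for miR-28a, all on the plus strand.
miR-708-5p: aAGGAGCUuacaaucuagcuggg
miR-28a-5p: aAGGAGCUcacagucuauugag
miR-708-3p: cAACUAGAcugugagcuucuag
miR-28a-3p: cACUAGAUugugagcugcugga
The 5p arms of miR-708 and miR-28a carry the same seed, and 16 of their 22 aligned bases were identical. No other listed miRNA with a RefSeq sequence (347 of 396) had that seed. The sequences used held none for miR-151, so its arms were not compared. The 3p arms of miR-708 and miR-28a do not share a seed: their best ungapped alignment was shifted by 1 base, with 17 of 21 bases identical. Their seeds matched none of the other listed miRNAs with a sequence. Both of these 3p arms begin with C and both 5p arms with A. Among the 67 listed miRNAs that begin with C the median log2 fold change, A30P over WT, was -2.33, among the 94 with A -3.08, among the 40 with G -2.14 and among the 146 with U -2.52.

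The 3p arms of miR-151 and miR-708 were higher in every A30P library than in any WT library, and miR-28a-3p was higher in each A30P library in which it had reads. All A30P values lay above the WT range for 4.04% of all 396 miRNAs, and the contrast was used to pick the family. In A30P libraries miR-151-3p had a lowest value of 13577, a median of 372845 and a highest value of 587561 normalized counts, against 1443, 2371 and 8554 in WT libraries. The lowest A30P value, in replicate 6, was 1.59 times the highest WT value, in replicate 8, so the groups came close at these libraries. The group means were 323037 ± 215802 in A30P (SD, n = 7) and 3134 ± 2346 in WT (SD, n = 8). By mean level miR-151-3p ranked 2 of 396 in A30P libraries and 37 in WT libraries.

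miR-708-3p, which shares its hairpin with the better known miR-708-5p, had a lowest value of 4988, a median of 15632 and a highest value of 21057 normalized counts in A30P libraries, against 440, 621 and 915 in WT libraries. Its groups were farther apart than those of miR-151-3p, with the lowest A30P value again in replicate 6 and 5.45 times the highest WT value. The log2 fold change on log2(value + 1) was 4.43 (SE 0.34) for miR-708-3p and 6.31 (SE 0.63) for miR-151-3p. The group means of miR-708-3p were 14754 ± 5607 in A30P (SD, n = 7) and 641 ± 158 in WT (SD, n = 8), so its A30P libraries varied less around their mean than those of miR-151-3p did. Without the 4 A30P libraries under 100000 listed reads the log2 fold change of miR-151-3p was 4.75, and without A30P replicate 6 it was 6.97. That of miR-708-3p was 5.56 under TMM scaling and 3.75 with libraries scaled by their listed reads.

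miR-28a-3p was a minor miRNA in both genotypes. It had 228, 784, 147, 93.5 and 288 normalized counts in A30P replicates 1, 2, 3, 6 and 8, and 0 reads in replicates 4 and 7, against 29.0 to 53.0 in WT libraries (median 46.1). The 5 A30P libraries with reads all lay above the WT range. In replicates 4 and 7, the shallowest libraries, a listing at 0 allows up to 169 and 154 normalized counts. Both lie above the levels of replicates 3 and 6. There 1 read stands for 56.4 and 51.2 normalized counts, which lie below those levels. Whether miR-28a-3p reached those levels in replicates 4 and 7 was not tested. The listings at 0 also set its fitted log2 fold change, 0.14 (SE 1.26), which was -0.79 with a pseudocount of 0.1 and 3.46 in edgeR, where it comes from the reads.

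**Figure D1:**
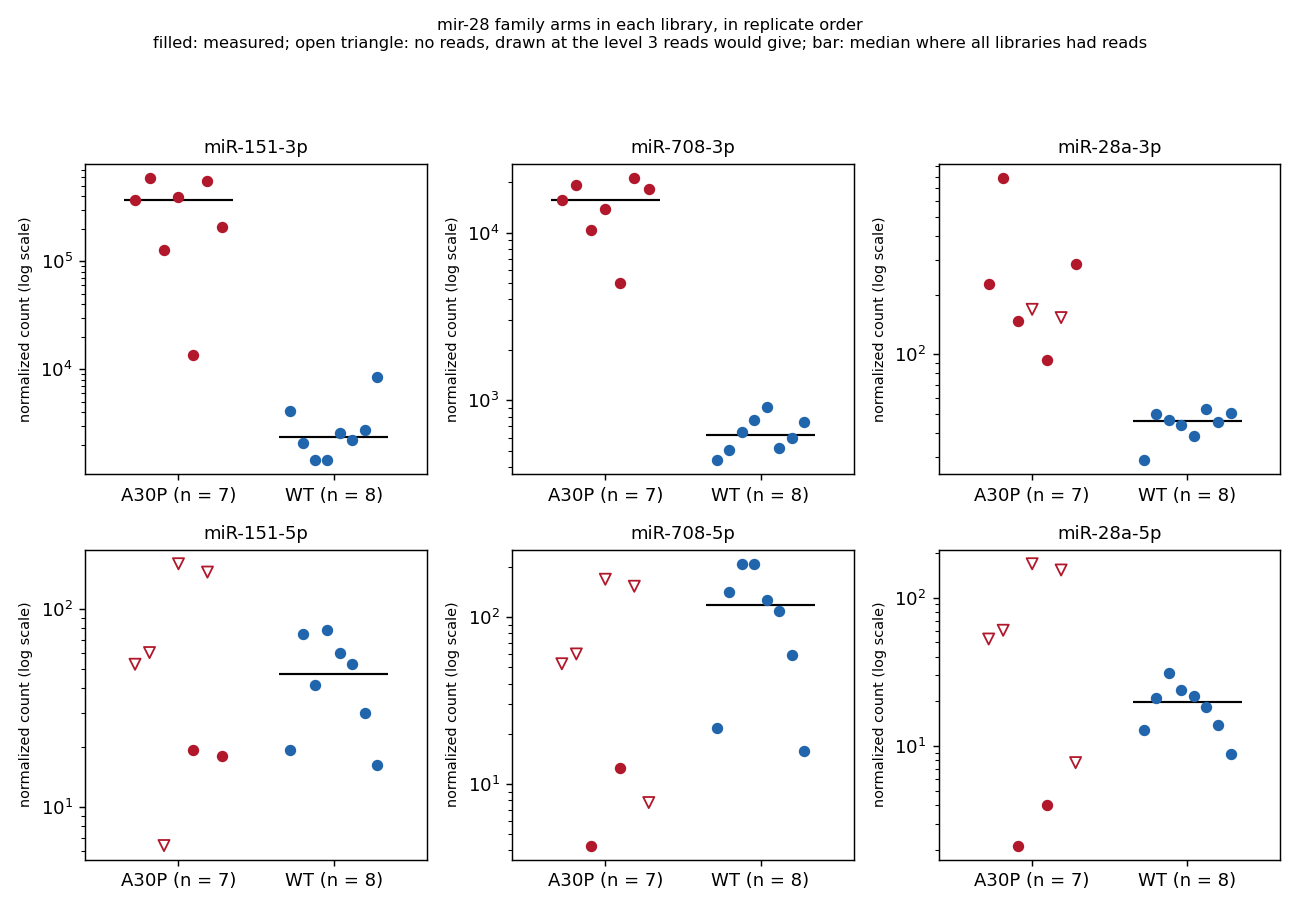
Normalized counts (log axis) of the 6 arms in 7 A30P and 8 WT libraries, in replicate order, with open triangles for libraries without reads, drawn at the level 3 reads would give. The 3p arms of miR-151 and miR-708 are higher in all A30P libraries, and most A30P points of the 5p arms are triangles.

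As a share of listed reads, which does not depend on the scaling, miR-708-3p made up 0.818% to 1.61% in A30P libraries, against 0.0619% to 0.178% in WT libraries. Its mean share was 1.26% ± 0.280 in A30P (SD, n = 7) and 0.0959% ± 0.0357 in WT (SD, n = 8), a ratio of 13.1. Counting error was small beside this: the lowest A30P share, in replicate 6, had a Wilson 95% interval of 0.809% to 0.828%, and the highest WT share, in replicate 8, one of 0.171% to 0.185%. These intervals account for counting error alone, because no molecular identifiers are given. The A30P libraries under 100000 reads (replicates 1, 2, 4 and 7) had miR-151-3p shares of 31.5% to 39.6%, replicates 3 and 8 had 16.8% and 18.2%, and replicate 6, the deepest, had 2.23%. The miR-28a-3p share was 153 to 420.1 reads per 1000000 in the 5 A30P libraries with reads, against 44.7 to 121 in WT libraries.

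**Figure D2:**
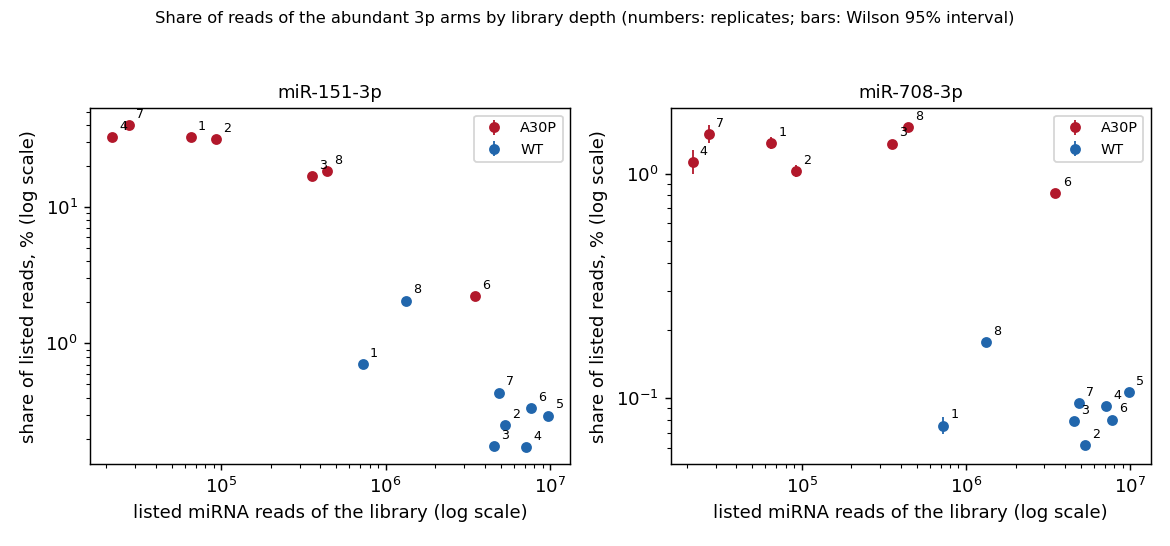
Share of listed reads (percent, log axis) of miR-151-3p and miR-708-3p against the listed reads of each library (log axis), with Wilson 95% intervals and replicate numbers. A30P replicate 6 and WT replicate 8 lie close together for miR-151-3p (2.23% and 2.06%) and apart for miR-708-3p (0.818% and 0.178%).

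The 5p arms were scarce in A30P libraries. miR-708-5p, known in mouse to target rhodopsin mRNA, had no reads in 5 of 7 A30P libraries, while replicates 3 and 6 held 4.26 and 12.5 normalized counts, against 15.7 to 209.8 in WT libraries (median 119). miR-28a-5p, with the same seed, was at 2.13 and 4.00 in those same A30P libraries and at 0 reads in the other 5, against 8.78 to 31.0 in WT libraries. For these 2 arms every A30P value lay below every WT value, as it did for 23.7% of all 396 miRNAs, while miR-151-5p overlapped, with 19.3 and 18.02 in A30P replicates 6 and 8 and 0 reads in the other 5, against 16.3 to 78.3 in WT libraries.

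In the shallowest libraries a listing at 0 carried little information, because few reads were due at that depth. At the median WT share, A30P replicate 4 would have held 3.44 reads of miR-708-5p, 1.31 of miR-151-5p and 0.559 of miR-28a-5p. The 3 deeper A30P libraries carry the comparison. In replicate 6, 72 reads of miR-708-5p were found where the WT shares would give 130.4 to 893, 23 reads of miR-28a-5p where they would give 73.9 to 133, and 111 reads of miR-151-5p where they would give 116 to 330.2. In replicate 8, miR-708-5p had 0 reads where WT shares would give 16.4 to 113, miR-28a-5p 0 where they would give 9.31 to 16.7, and miR-151-5p 7 where they would give 14.6 to 41.6. In replicate 3 these arms had 2, 1 and 0 reads where at least 13.2, 7.50 and 11.8 were due. All 3 5p arms thus had fewer reads than the lowest WT share would give in each of the deeper A30P libraries. For miR-151-5p in replicate 6 this gap lay within counting error. Its share had a Wilson interval of 0.00263% to 0.00382%. The lowest WT share, from 24 reads in WT replicate 1, had one of 0.00223% to 0.00493%. The miR-151-5p interval of replicate 8, 0.000769% to 0.00328%, overlapped the latter as well. The shares of the 5p arms also fall when another miRNA takes up a larger part of a library, which the arm ratios below do not.

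limma called 8.33% of the listed miRNAs higher and 71.0% lower at adjusted p 0.05, beside 2 and 3 of the 6 arms, and edgeR with TMM scaling called 19.5% of 318 higher and 35.5% lower, beside 3 and 2 of the 6 arms. Nothing is read from these counts, since the contrast was used to pick the family, and at these depths both tools made more false calls on simulated data than at equal depth. The median log2 fold change over all listed miRNAs was -2.57, which shifted by 0.74 under TMM scaling and by -0.35 when libraries were scaled by their listed reads. In the authors' deposited table the log2 fold change was 3.54 (SE 0.47) for miR-708-3p, 2.60 (SE 0.53) for miR-151-3p and 1.70 (SE 0.67) for miR-28a-3p. The limma values of miR-708-3p and miR-151-3p, 4.43 and 6.31, were larger and in the other order. DESeq2, run here on the recovered reads, gave 4.52 (SE 0.32) for miR-708-3p and 6.69 (SE 0.57) for miR-151-3p, in the order of limma. The submitters' notes name DESeq, but the settings behind the authors' values are not given, and the reason for the difference was not tested. For the 5p arms the authors' deposited table gave -2.05 (SE 0.65) for miR-708-5p, -1.98 (SE 0.61) for miR-28a-5p and -0.60 (SE 0.57) for miR-151-5p.

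The ratio of 3p to 5p reads within a hairpin needs no scaling between libraries. For miR-151 it was 702 in A30P replicate 6 (exact 95% interval 583 to 854) and 11480.4 in replicate 8 (5572 to 28556), against 18.4 to 525 in WT libraries (median 41.9). In the other 5 A30P libraries the 5p arm had 0 reads, and with 3 reads as the floor for each library the ratio was at least 2350 to at least 19932. All 7 A30P values or bounds thus lay above the WT range, with the interval of A30P replicate 6 overlapping that of WT replicate 8 (400.04 to 703).

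For miR-708 the ratio was 398 in A30P replicate 6 (exact 95% interval 316 to 509) and 2418 in replicate 3, from 2 reads of the 5p arm (669 to 19968), against 3.10 to 47.2 in WT libraries (median 5.97). The bounds in the other A30P libraries ran from at least 81.7 to at least 2369, so no A30P library reached down to the WT range. The 5p arm gave 0.251% of miR-708 reads in A30P replicate 6 and 2.08% to 24.4% in WT libraries.

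For miR-28a, which had the most even arms, the ratio was 23.3 in A30P replicate 6 (exact 95% interval 15.4 to 37.2) and 69.0 in replicate 3, from 1 read of the 5p arm (12.0 to 2764), against 1.51 to 5.75 in WT libraries (median 2.30). The bounds in A30P replicates 2 and 8 were at least 13.0 and at least 37.3. In replicate 1 the bound was at least 4.33, within the WT range, and replicates 4 and 7 had no reads of either arm. In A30P replicate 6, the A30P library with reads of all 6 arms, the ratio was highest for miR-151 and lowest for miR-28a, as were the WT medians.

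**Figure D3:**
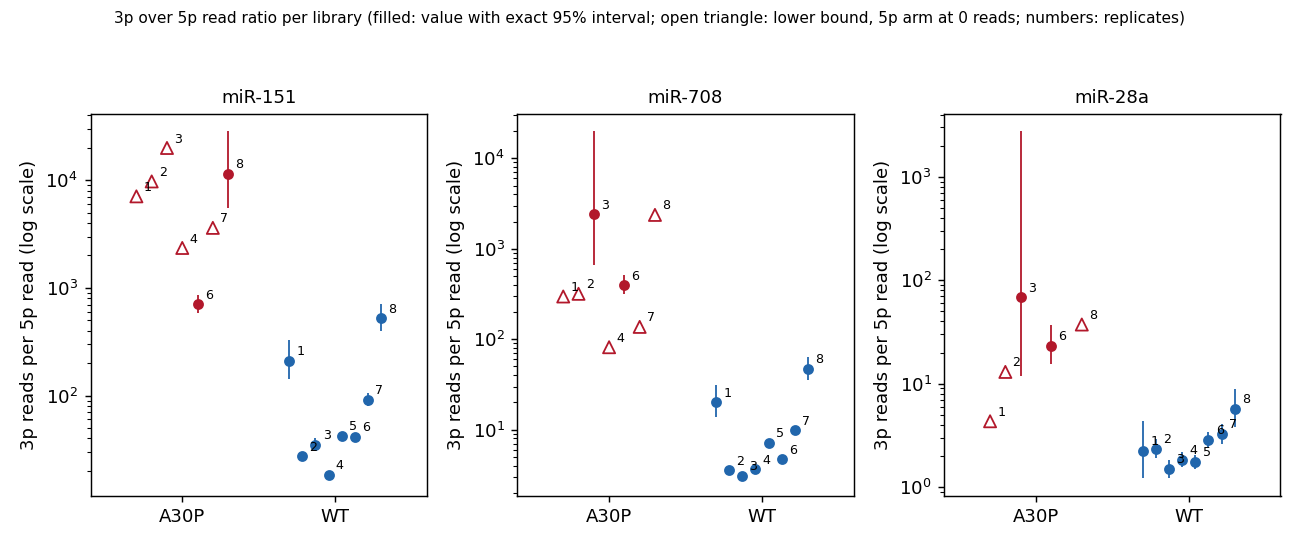
Ratio of 3p to 5p reads (log axis) per library for the 3 hairpins, with exact 95% intervals, lower bounds as open triangles and replicate numbers. The A30P values and bounds of miR-151 and miR-708 lie above all WT values, and WT replicate 8 is the highest WT library for each hairpin (525, 47.2 and 5.75).

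The arms were also set beside all 93 hairpins with both arms listed, as a description, since the 3p values of miR-151 and miR-708 chose the family and largely fix their ranks. The difference between the log2 fold changes of the 3p and the 5p arm was 10.46 for miR-151, 9.91 for miR-708 and 3.81 for miR-28a, at ranks 1, 2 and 12 of 93, with a median of 0.15. Among the 66 hairpins with a WT mean of at least 10 for both arms the next was miR-30a (6.66). At the other end, with the 5p arm changing upward relative to the 3p arm, stood miR-664 (-7.67), miR-379 (-7.60) and miR-1981 (-7.18). Since these differences rest on listings at 0 in shallow libraries, A30P replicate 6 was also compared alone with the WT median over the 52 hairpins with at least 10 reads of both arms in each of these libraries. On the log2 scale its ratio was higher than the WT median by 6.09 for miR-708, 4.07 for miR-151 and 3.34 for miR-28a, at ranks 1, 2 and 4 of 52 (median 0.09), with no replicate behind this value.

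**Figure D4:**
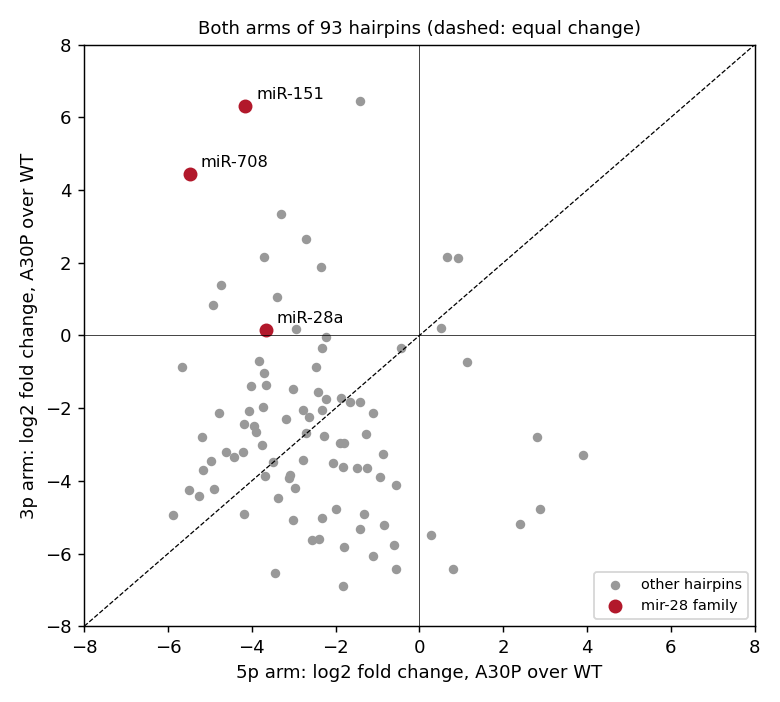
Log2 fold change, A30P over WT, of the 3p arm (vertical axis) against the 5p arm (horizontal axis) for 93 hairpins with both arms listed. miR-151 and miR-708 lie in the upper left, far from the dashed line of equal change (differences 10.46 and 9.91), and miR-28a lies nearer to it (3.81).

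Variation among WT libraries was not used to pick the family and could be tested. In all 8 WT libraries the 3p arm had more reads than the 5p arm of the same hairpin. WT replicates 1 and 8 stood apart: they were the shallowest WT libraries, had the lowest miR-708-5p (21.8 and 15.7 normalized counts, against 59.7 to 209.8 in the other 6) and the highest miR-151-3p (4097 and 8554, against 1443 to 2726). miR-708-3p spread over a range of only 2.08 times across WT libraries, miR-28a-3p over 1.83 times, miR-151-3p over 5.93 times and miR-708-5p over 13.4 times.

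Of 24 relations computed between arms or with depth within a genotype, 10 passed an adjusted p of 0.05 by Pearson's r, 8 of them within WT. None of the 8 passed without WT replicates 1 and 8, where 6 libraries remained. With any 1 WT library left out, of these 8 only the relations of miR-708-5p with miR-28a-5p and with miR-151-3p passed each time. How often other pairs of listed miRNAs reached such r was not counted, so nothing particular to the family is read from them. The closest miRNAs outside the family reached r of 0.98 to 0.99 with miR-151-3p in WT. The same-seed arms miR-28a-5p and miR-708-5p rose and fell together over the 8 WT libraries (r = 0.95, exact permutation p = 9.9e-05, adjusted p = 0.00149; rho = 0.95, exact p = 0.00114, adjusted p = 0.0137), and r was 0.94 (adjusted p = 0.0571 by exact permutation) without WT replicates 1 and 8. miR-151-3p ran against miR-708-5p (r = -0.95, exact permutation p = 0.000124, adjusted p = 0.00149; rho = -0.98, exact p = 0.000397, adjusted p = 0.00952), with r = -0.89 (adjusted p = 0.0733 by exact permutation) without WT replicates 1 and 8. It also ran against miR-28a-5p (r = -0.94, exact permutation p = 0.000322, adjusted p = 0.00258; rho = -0.90, exact p = 0.00456, adjusted p = 0.0365; r = -0.81 without WT replicates 1 and 8), but this did not pass without WT replicate 8 (r = -0.88, adjusted p = 0.0524 by exact permutation) or on the share scale (r = -0.77, adjusted p = 0.099 by exact permutation).

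Between miR-151-3p and its own 5p arm r was -0.83 (exact permutation p = 0.00724, adjusted p = 0.0259; rho = -0.83, exact p = 0.0154, adjusted p = 0.0738). Without WT replicates 1 and 8 it was -0.37, so that relation rested on these libraries, and it no longer passed without replicate 1, 4, 7 or 8. The 2 abundant 3p arms, miR-151-3p and miR-708-3p, showed no detectable relation within WT (r = -0.03, exact permutation p = 0.949, adjusted p = 0.949; rho = -0.19, exact p = 0.665, adjusted p = 0.886).

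Depth moved with several arms in WT: with log10 listed reads, r was 0.86 for miR-151-5p (exact permutation p = 0.00747, adjusted p = 0.0259; rho = 0.76, exact p = 0.0368, adjusted p = 0.126), 0.85 for miR-708-5p (exact permutation p = 0.0201, adjusted p = 0.0482; rho = 0.50, exact p = 0.216, adjusted p = 0.472) and -0.72 for miR-151-3p (exact permutation p = 0.0477, adjusted p = 0.0955; rho = -0.48, exact p = 0.243, adjusted p = 0.486). Without WT replicates 1 and 8 these were 0.49, 0.068 and 0.25, so they too rested on the shallowest WT libraries. The relation of miR-151-5p to depth did not pass without replicate 1, 7 or 8, and that of miR-708-5p passed only in full and without replicate 3.

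The arm ratios were correlated with each other and with depth after the values had been seen, a family of 6 relations over the 8 WT libraries. The log10 ratios of miR-151 and miR-708 moved together (r = 0.97, exact permutation p = 0.000372, adjusted p = 0.00223; rho = 0.90, exact p = 0.00456, adjusted p = 0.0274), with r = 0.83 (adjusted p = 0.175 by exact permutation) without WT replicates 1 and 8. The ratio of miR-28a followed miR-151 less closely (r = 0.75, exact permutation p = 0.0306, adjusted p = 0.0406; rho = 0.52, exact p = 0.197, adjusted p = 0.295), and it did not pass without replicate 2, 3, 4, 5, 7 or 8 (r = 0.39 without replicate 8). With log10 listed reads r was -0.83 for miR-151 (exact permutation p = 0.0212, adjusted p = 0.0406; rho = -0.52, exact p = 0.197, adjusted p = 0.295) and -0.21 without WT replicates 1 and 8, and it passed only in full and without replicate 6. Such movement was widespread: of 52 other hairpins with at least 10 reads of both arms in every WT library, 10 had r of at least 0.9 with the miR-151 ratio and 6 had r of -0.9 or below, given as a description. miR-708 was second among the 52 and miR-28a ranked 19.

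Within the 7 A30P libraries miR-151-3p fell with depth (r = -0.91, exact permutation p = 0.00754, adjusted p = 0.0259; rho = -0.71, exact p = 0.0881, adjusted p = 0.235), with r = -0.76 without replicates 6 and 8, the 2 farthest from the median depth. For miR-708-3p this r was -0.77 (exact permutation p = 0.0421, adjusted p = 0.0918; rho = -0.43, exact p = 0.354, adjusted p = 0.566). Here the 2 abundant 3p arms had r = 0.95 (exact permutation p = 0.00952, adjusted p = 0.0286; rho = 0.82, exact p = 0.0341, adjusted p = 0.126), but without replicates 3 and 6, the 2 farthest from the median of miR-151-3p, r was 0.27. That relation therefore rested on those libraries.

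Among the 91 other miRNAs with reads in all 15 libraries, those most like miR-151-3p over the 8 WT libraries were miR-99b-5p (r = 0.99), from the hairpin cluster that also holds let-7e and miR-125a, miR-129-5p (r = 0.98) and miR-1964-3p (r = 0.98). Over the 7 A30P libraries their r with miR-151-3p was 0.17, -0.56 and 0.63. Those most like miR-708-3p in WT were miR-134-5p (r = 0.94), which restrains dendritic spine size in rat neurons, the activity-induced miR-212-5p (r = 0.73) and miR-300-3p (r = 0.65), with r of -0.22, -0.95 and -0.76 in A30P. They are the closest of 91 and are named as a description. In group means miR-99b-5p had 13123 normalized counts in A30P and 7620 in WT libraries (log2 fold change 0.92, limma adjusted p = 0.0080), and miR-134-5p had 300 in A30P and 460.1 in WT libraries (log2 fold change -0.67, limma adjusted p = 0.128).

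Other miRNAs listed by name as lying within introns of protein-coding genes were set beside all listed miRNAs. Of 55 listed arms in a list of such miRNAs, limma called 3 higher and 44 lower and 8 did not pass, with a median log2 fold change of -3.15, beside 8.33% higher, 71.0% lower and a median of -2.57 over all 396, so the list's counts lay near those of the whole table. miR-30e-3p, from an intron of Nfyc, rose to 3779 ± 1527 normalized counts in A30P (SD, n = 7), against 595 ± 208 in WT (SD, n = 8; log2 fold change 2.65, SE 0.37, limma adjusted p = 5.7e-06). The other rises were those of miR-30c-2-3p (log2 fold change 1.99) and miR-106b-3p (1.88). The list also keeps copies of its miRNAs that lie outside such introns, and whether the miR-30c-2 hairpin lies in one was not checked. The largest falls among abundant members were those of miR-330-3p (log2 fold change -6.07), miR-338-5p (-5.87), miR-342-3p (-5.64) and miR-107-3p (-5.61). These 4 had reads in 4, 6, 3 and 3 of 7 A30P libraries, so their fold changes depend on the pseudocount. In edgeR with TMM scaling 5 members of the list rose and 22 fell, beside 19.5% higher and 35.5% lower of all 318 miRNAs tested.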

How the data were processed

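Midbrain small RNA libraries of 7 A30P and 8 WT samples were analysed from the deposited table. Per the labels' protocols, Trizol was used for extraction and Illumina's TruSeq kit for the small RNA libraries, although each column name in the file header starts with NEB, which leaves the kit uncertain. The submitters' processing notes name mm9 and DESeq, and the sources used here give no aligner, counter or annotation. Columns named CT were read as the control and matched to WT by number.

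The signal values were deposited by the authors after scaling of each library: in all 15 libraries 100% of the values were whole multiples of a step (within 1e-05), and dividing by that step gave reads. The authors deposited log2 fold changes and their SE in the same table, printed only where named. limma 3.58.1 (trend, robust, R 4.3.3) was run on log2(value + 1) with Benjamini-Hochberg adjustment, and all 396 miRNAs passed the filter of a group mean of 1. Fold changes are on that scale, where those of low miRNAs depend on the pseudocount and on listings at 0. As alternatives, edgeR 4.0.16 (quasi-likelihood) and DESeq2 1.42.0 used the recovered reads. For miR-151-5p these gave log2 fold changes of -0.82 and -2.17, a smaller fall than the -4.15 of limma. The fits were tested on simulated data: at equal depth limma and edgeR recovered what was put in with few false calls, but at the depths of these libraries both made more false calls, limma the more, and limma missed part of the rises put in. The counts of called miRNAs, limma's above all, are therefore uncertain. Correlations of log2(value + 1) used two-sided exact permutation over all pairings (scipy 1.17.1, numpy 2.4.6).

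The members, lists and tests were chosen with earlier results of these data known. The design named 4 arms, and the miR-28a arms, the arm ratio correlations and the fits without WT replicates 1 and 8 were added after seeing the data. Named miRNAs are the family and the 3 most like each abundant 3p arm in WT. Also named are the 3 hairpins with the largest arm differences in each direction. Of the intronic list, up to 4 rising and 4 falling members of higher level are named. Alternatives were other scalings, pseudocounts, filters and tests, the replicate number as a block, and fits without some libraries.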

Additional observations from a re-analysis of the deposited data

Results flagged for a closer look

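Among 27 groups of values checked, 11 had a sample far from the others by Dixon's test at the 95% level, which chance gives in about 1 in 20 independent groups. The same reads enter as normalized counts, shares and ratios, so the groups are not independent and no excess is read from these 11. WT replicate 8 was the high sample in 6 of them: miR-151-3p (8554 normalized counts, 20575 reads per 1000000), miR-708-3p (1778 reads per 1000000) and the 3p over 5p ratios of miR-151 (525), miR-708 (47.2) and miR-28a (5.75). A30P replicate 6, the deepest A30P library, was the high sample for miR-708-5p (12.5 normalized counts, 20.6 reads per 1000000) and miR-28a-5p (6.57 reads per 1000000). miR-28a-3p was high in A30P replicate 2 (784 normalized counts), and miR-28a-5p in WT replicate 3 (37.9 reads per 1000000).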

How the results depend on the processing

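Of 698 values recomputed over 52 results, 604 were counted as the same and 1 as reversed. This count is lenient and includes large shifts. DESeq2 called 193 miRNAs lower, against 281 in the main fit, and this counted as the same. So did the change of sign of miR-28a-3p, from 0.14 to -0.79 with a pseudocount of 0.1. The pseudocount set the 5p arms, which are mostly at 0 reads in A30P: with 0.1 the log2 fold changes were -6.51 (miR-151-5p), -6.08 (miR-28a-5p) and -7.88 (miR-708-5p), and with 10 they were -1.94, -1.39 and -3.01. For miR-708-3p scaling by listed reads gave 3.75 and TMM scaling 5.56. edgeR called 62 miRNAs higher and 113 lower of 318 tested (5 and 22 of the intronic list) and gave -0.82 (miR-151-5p), 3.46 (miR-28a-3p), -1.70 (miR-28a-5p), 5.56 (miR-708-3p) and -2.82 (miR-708-5p). DESeq2 gave -2.17 (miR-151-5p) and -2.46 (miR-28a-5p). Without the A30P libraries under 100000 reads the values were 4.75 (miR-151-3p), -2.52 (miR-151-5p), 11.9 percentage points of share (miR-151-3p) and a median miR-708 ratio of at least 2369, a bound from a library without 5p reads. The causes of the other changes were not tested.

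On the share scale r was -0.69 (miR-151-3p with miR-151-5p), -0.77 (with miR-28a-5p), 0.42 (miR-151-5p with miR-28a-5p), 0.80 (with miR-708-5p) and 0.86 (depth with miR-708-5p) in WT, and 0.64 between both abundant 3p arms in A30P. Without WT replicates 1 and 8 these levels gave -0.37, -0.81, 0.40, 0.63 and 0.068, with -0.89 (miR-151-3p with miR-708-5p), 0.94 (miR-28a-5p with miR-708-5p) and 0.49 (depth with miR-151-5p), and arm ratios gave 0.83 (miR-151 with miR-708), 0.60 (miR-151 with miR-28a), 0.56 (miR-708 with miR-28a), -0.21 (depth with miR-151) and, reversed, 0.21 (depth with miR-708).

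Leaving out each WT replicate in turn gave r of -0.90 to -0.72 (miR-151-3p with miR-151-5p), -0.96 to -0.88 (miR-151-3p with miR-28a-5p), 0.66 to 0.96 (miR-151-5p with miR-28a-5p), 0.86 to 0.98 (miR-151-5p with miR-708-5p), 0.81 to 0.90 (depth with miR-151-5p) and 0.81 to 0.90 (depth with miR-708-5p). For arm ratios it gave 0.39 to 0.88 (miR-151 with miR-28a), 0.38 to 0.87 (miR-708 with miR-28a), -0.85 to -0.80 (depth with miR-151) and -0.83 to -0.71 (depth with miR-708). Each of these ranges holds a value that no longer passed an adjusted p of 0.05, over 7 libraries.

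Same-numbered samples had correlations of -0.28 to 0.27 over 92 miRNAs. No sign that the replicate number pairs the samples was seen, although these values cannot exclude pairing. With the number as a block 28 miRNAs were called higher and 269 lower, against 33 and 281 without it. Depth limits the 5p arms most, since 4 of 7 A30P libraries hold under 100000 reads.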
